A study of Mus musculus with 40 samples.

Results

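The 33 genes described here are autosomal mouse genes known to be imprinted, taken from a list of gene symbols. All 33 were found among the 55413 annotated genes on chromosomes 1 to 19, X and Y (21938 of them protein-coding). Imprinted genes are expressed mainly or only from the copy inherited from one parent. The copies are told apart by DNA methylation laid down in the egg or the sperm at control regions, many of which lie at promoters and are rich in CpG. At such a promoter the unmethylated, active copy usually carries H3K4me3, while the other copy is methylated. Many of these genes act in fetal growth, placental development and energy balance, and several, such as Dlk1, Mest, Grb10 and Gnas, are known from studies of adipose tissue.

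The measurements were ChIP-seq peak lists for 4 histone marks, made from brown adipose tissue (iBAT) of 8 wild type C57BL/6N mice. Each mouse gave 1 list per mark, 32 in all. H3K4me3 marks promoters, H3K27ac active promoters and enhancers, H3K4me1 enhancers and promoter flanks, and H3K27me3 regions held silent by Polycomb. The mice were 20 weeks old and formed 4 conditions of 2 mice each. Mice 1 and 2 were warm on chow (NCD, the control diet), mice 4 and 5 were cold on chow, mice 7 and 8 were warm on a high-fat diet (HFD), and mice 10 and 11 were cold on HFD. HFD was given for 12 weeks from an age of 8 weeks, and the cold mice spent their last 24 h at 4 °C. The study's methods call the tissue interscapular, whereas its deposited design calls it inguinal. Every list carries the number of 1 mouse, although the methods can be read as tissue of 2 mice pooled per experiment. All p-values below therefore measure the spread between these lists only. The strain is inbred, so reads of the maternal and the paternal copy cannot be told apart. In bulk tissue, a mark present in fewer cells and a weaker mark in each cell cannot be told apart either.

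A gene had a mark in a mouse when a peak of that list reached within 2000 bp of any of its start sites. The lists differed in length. H3K4me3 lists held 13517 (mouse 7) to 24104 peaks (mouse 11) and H3K27ac lists 3224 (mouse 7) to 40604 peaks (mouse 11). H3K4me1 ranged from 12 (mouse 7) to 27568 peaks (mouse 5), and H3K27me3 from 20 (mouse 10) to 6428 peaks (mouse 5). The number of reads behind each list is unknown here, so a missing peak says only that none was called at that depth. The lists of mouse 7 stood apart by their shortness, and those of mouse 10 were the shortest or next shortest for each mark, so counts are also given without both. Of 10 brown adipocyte markers, 9 to 10 had H3K4me3 in each mouse. Markers of skeletal muscle with H3K4me3 numbered 2 of 8 (Acta1 and Pygm) in every NCD mouse and 0 in every HFD mouse, while Ckm, Myh1, Myh2, Myh4 and Tnnt3 had no mark anywhere. Endothelial markers had H3K4me3 in 4 to 5 of 5 cases per mouse, preadipocyte or fibroblast markers in 1 to 5 of 5, macrophage markers in 0 to 3 of 6, neuronal markers in 0 to 2 of 5 and hepatocyte markers in 0 to 1 of 5.

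Promoter sequences were at hand for 27 of the 33 genes (RefSeq, GRCm38.p6, the build of the peak lists). Peg10, Kcnq1, Impact, Sgce, H19 and Cdkn1c had none and are only named. Those of Mest, Grb10 and Snrpn are shown as examples in which H3K4me3 overlapped one promoter window of a gene and not another. That of Kcnq1ot1 is shown because its H3K4me3 rank is compared between temperatures. Each is the 250 bases before a start site, written 5′ to 3′ on the gene's strand, with CpG in capitals.

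The upstream start of Mest, a gene for a hydrolase-like protein made in growing adipocytes, lies after chr6:30733256-30733505 on the plus strand. No H3K4me3 peak overlapped this window in any mouse.
Mest upstream promoter: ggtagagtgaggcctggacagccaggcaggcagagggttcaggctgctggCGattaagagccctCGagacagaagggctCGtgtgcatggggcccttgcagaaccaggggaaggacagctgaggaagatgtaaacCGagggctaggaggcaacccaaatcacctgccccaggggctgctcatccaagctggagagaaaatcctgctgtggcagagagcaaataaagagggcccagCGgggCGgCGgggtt
The downstream start of Mest lies after chr6:30737800-30738049, also on the plus strand, and H3K4me3 overlapped this window in 5 mice.
Mest downstream promoter: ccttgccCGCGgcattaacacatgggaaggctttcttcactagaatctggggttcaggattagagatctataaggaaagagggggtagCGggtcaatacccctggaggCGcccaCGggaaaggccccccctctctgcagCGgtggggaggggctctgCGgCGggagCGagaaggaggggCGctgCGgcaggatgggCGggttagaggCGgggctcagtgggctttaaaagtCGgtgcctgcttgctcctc
The more CpG-poor start of Grb10, an adaptor protein that restrains insulin and IGF signalling, lies after chr11:12027972-12028221 on the minus strand, and no H3K4me3 peak overlapped this window.
Grb10 inner promoter: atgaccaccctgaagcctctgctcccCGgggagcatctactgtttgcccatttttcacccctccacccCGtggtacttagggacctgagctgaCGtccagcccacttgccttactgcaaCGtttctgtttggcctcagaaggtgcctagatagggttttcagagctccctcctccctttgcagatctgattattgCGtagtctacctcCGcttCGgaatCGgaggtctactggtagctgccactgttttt
The outer start of Grb10 lies after chr11:12037421-12037670 on the minus strand, and H3K4me3 overlapped this window in 7 mice.
Grb10 outer promoter: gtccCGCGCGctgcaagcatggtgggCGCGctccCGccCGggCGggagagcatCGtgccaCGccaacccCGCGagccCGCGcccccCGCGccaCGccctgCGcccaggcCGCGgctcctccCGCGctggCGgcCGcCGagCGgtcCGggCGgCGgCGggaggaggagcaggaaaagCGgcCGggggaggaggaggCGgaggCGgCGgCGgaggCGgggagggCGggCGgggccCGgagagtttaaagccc
Kcnq1ot1, the long antisense RNA of the Kcnq1 domain, starts after chr7:143296548-143296797 on the minus strand, within an intron of Kcnq1. H3K4me3 overlapped the window in 7 mice.
Kcnq1ot1 promoter: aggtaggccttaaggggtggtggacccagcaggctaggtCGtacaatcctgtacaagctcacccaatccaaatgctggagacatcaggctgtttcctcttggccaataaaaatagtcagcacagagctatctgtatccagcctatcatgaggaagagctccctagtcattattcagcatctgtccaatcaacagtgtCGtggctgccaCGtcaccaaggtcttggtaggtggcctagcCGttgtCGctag
Snrpn, which encodes a splicing protein of the Prader-Willi region, has a start after chr7:60005200-60005449 on the minus strand, with H3K4me3 over the window in 7 mice.
Snrpn promoter with H3K4me3: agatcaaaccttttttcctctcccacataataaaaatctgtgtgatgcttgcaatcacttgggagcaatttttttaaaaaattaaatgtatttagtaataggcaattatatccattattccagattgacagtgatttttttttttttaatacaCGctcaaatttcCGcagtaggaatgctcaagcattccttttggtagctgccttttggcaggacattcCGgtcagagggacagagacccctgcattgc
An upstream start of Snrpn after chr7:60140226-60140475, on the minus strand, had no H3K4me3.
Snrpn upstream promoter: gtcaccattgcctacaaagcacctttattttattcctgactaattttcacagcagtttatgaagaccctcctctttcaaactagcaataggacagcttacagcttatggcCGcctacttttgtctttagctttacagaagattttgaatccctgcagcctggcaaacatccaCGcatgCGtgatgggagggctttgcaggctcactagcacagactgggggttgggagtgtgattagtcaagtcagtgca

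The Mest window under H3K4me3 held 14 CpG and the one without held 7. The Grb10 windows held 40 and 8. Both Snrpn windows held 3 CpG, so there the marked start was not the richer one in these 250 bases. Kcnq1ot1 held 5 and had no second window to compare. Over all 32851 windows in the table the median was 6 CpG, 29.4% held at least 14 and 1.31% at least 40. In 300-base windows, which reach 50 bases past the start, the same Snrpn windows held 7 (marked) and 3 CpG. Igf2, Meg3, Zdbf2 and Gnas, not shown, also had windows with and without H3K4me3. In 300 bases their marked windows held 24, 13, 38 and 27 to 40 CpG. Their unmarked windows held 2 to 14, 1, 15 and 16. The letters TGCCGC, the core bound by ZFP57 when methylated, were searched on both strands (as TGCCGC or GCGGCA) in 300-base windows reaching 50 bases past the start. They were found in 11 of 43 windows of the imprinted genes (25.6%, in 10 genes) and in 11.6% of all windows. Among the imprinted genes' windows, 6 of 17 under H3K4me3 in 6 or more mice held them (35.3%), 3 of 8 under H3K4me3 in 1 to 5 mice (37.5%) and 2 of 18 under none (11.1%). The median CpG number was 17, 17 and 6 in these 3 sets and 7 over all windows. A match of letters is a description and not a binding site, and windows of one gene can overlap.

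Most imprinted genes carried a mark at a promoter in this tissue. A peak of any mark was found in at least 1 mouse at 31 of 33 genes (93.9%), against 39.3% of all genes and 68.5% of protein-coding genes. Rian and Mirg, noncoding RNAs of the Dlk1-Meg3 domain, had none. H3K4me3 was found at 29 genes (87.9%, against 34.8% of all and 65.7% of protein-coding genes) and H3K27ac at 10 (30.3%, against 28.0% and 50.6%). H3K4me1 was found at 3 (9.09%, against 17.9% and 31.3%) and H3K27me3 at 8 (24.2%, against 4.60% and 7.97%). H3K4me3 was thus listed at more of the imprinted genes than of either background, while H3K27ac was listed at about the share of all genes and at fewer than of the coding genes.

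**Figure D1:**
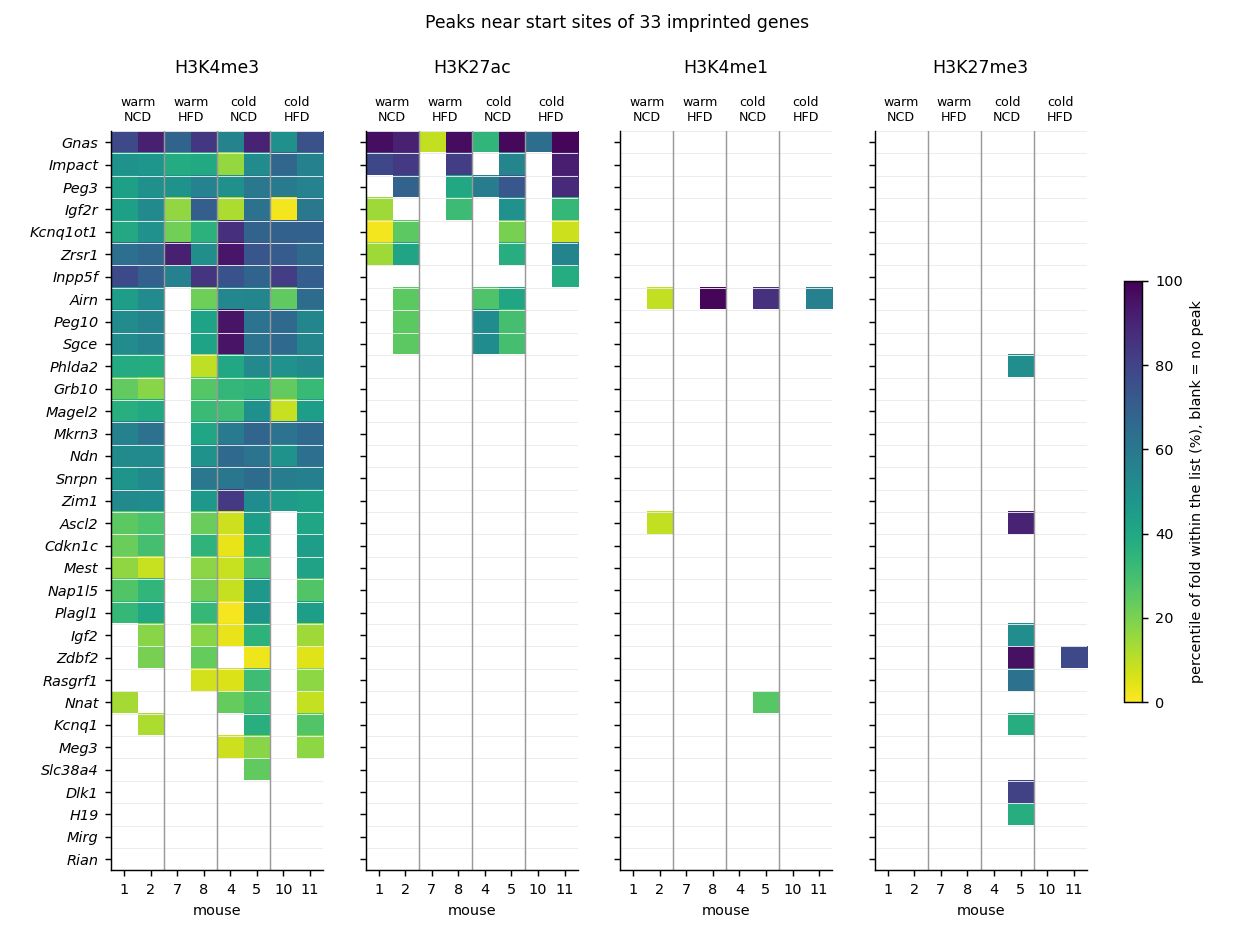
Peaks within 2000 bp of a start site for each imprinted gene and mouse, 1 panel per mark, with the colour giving the percentile of the peak's fold enrichment within its own list and an empty cell no peak. H3K4me3 fills most cells outside mouse 7, H3K27ac a minority of genes, and H3K27me3 falls almost wholly in mouse 5.

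The genes with H3K4me3 in all 8 mice were Gnas, Igf2r, Impact, Inpp5f, Kcnq1ot1, Peg3 and Zrsr1 (7 of 33, 21.2%, against 21.7% of all genes and 44% of protein-coding genes). A further 10 had it in 7 mice, and in each of them mouse 7 alone lacked it: Airn, Grb10, Magel2, Mkrn3, Ndn, Peg10, Phlda2, Sgce, Snrpn and Zim1. That pattern was general, since 97.1% of the 3088 genes with H3K4me3 in 7 mice also lacked it in mouse 7. Ascl2, Cdkn1c, Mest, Nap1l5 and Plagl1 had it in 6 mice, all without mice 7 and 10, as did 84.4% of the 1247 genes found in 6 mice. Without these 2 mice, H3K4me3 was present in every remaining mouse at 22 of 33 imprinted genes, against 29.1% of all genes. With the 8 mice the share in every mouse was thus close to that of all genes and below that of protein-coding genes. Without these 2 mice it was above that of all genes, and the share of protein-coding genes was not computed. H3K4me3 in 7 or 8 mice was found at 51.5% of the imprinted and 54.5% of the protein-coding genes.

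Recurrence was lower at the rest. Igf2, the fetal growth factor, had H3K4me3 in 5 mice, and Nnat, Rasgrf1 and Zdbf2 had it in 4. Kcnq1, a potassium channel subunit, had it in 3 mice (2, 5 and 11) and so did Meg3, a noncoding RNA (4, 5 and 11). Slc38a4, an amino acid transporter, had it in mouse 5 alone. H19, Dlk1, Rian and Mirg had it in none. At H19 the nearest H3K4me3 peak lay 2012 to 44527 bp from the start site over the 8 mice (median 2268), so in part of the mice the nearest peak fell just outside the 2000 bp window. At Dlk1, which encodes a preadipocyte surface protein, the nearest lay at 87365 to 558111 bp.

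**Figure D2:**
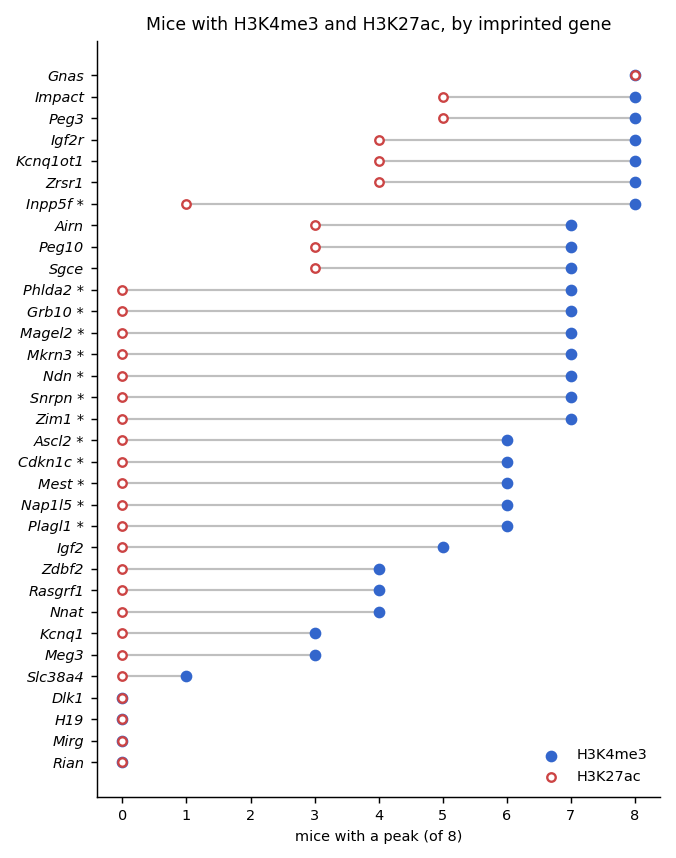
Number of mice (of 8) with H3K4me3 (filled points) and with H3K27ac (open points) within 2000 bp of a start site of each imprinted gene, with an asterisk where the adjusted Fisher p of the difference is below 0.05. Gnas is the gene where both points reach 8, and 13 genes carry an asterisk.

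The share of imprinted genes with H3K4me3 varied with the list. In mice 1, 2, 4, 5, 7, 8, 10 and 11 it was 69.7%, 75.8%, 78.8%, 87.9%, 21.2%, 75.8%, 51.5% and 84.8%. The matching share of protein-coding genes was 60.8%, 61.8%, 62.3%, 64.3%, 44.3%, 59.4%, 55.0% and 62.6%. The imprinted genes lay above the coding genes in 6 mice and below them in mice 7 and 10. Each list was then shortened to its 10000 peaks of highest −log10 q. The share was 12.1% to 36.4% for the imprinted genes and 37.1% to 47.5% for the coding genes. The imprinted genes lay below in all 8 mice. The direction of this difference therefore depended on how many of the weaker peaks were kept. In the shortened lists only Gnas, Inpp5f and Zrsr1 had H3K4me3 in all 8 mice, and 14 genes had it in at least 1.

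**Figure D3:**
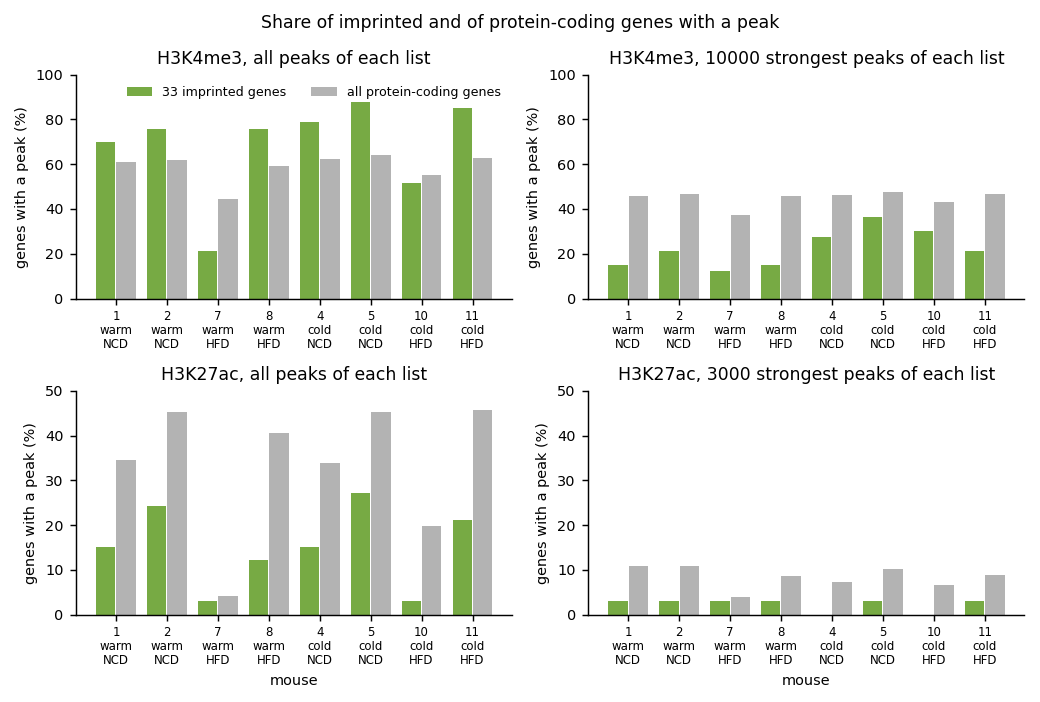
Percentage of the 33 imprinted genes (green bars) and of all protein-coding genes (grey bars) with H3K4me3 or H3K27ac in each mouse. Values are from the full lists and from the 10000 (H3K4me3) or 3000 (H3K27ac) peaks of highest −log10 q. In the full H3K4me3 lists green exceeds grey in 6 of 8 mice, and in the shortened lists in none.

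H3K4me3 peaks of the imprinted genes were taken only where they reached within 2000 bp of a start site. Their closeness to it is thus partly set by that rule, and no matching values for all genes were computed. The 222 peaks count those shared by Peg10 and Sgce for each gene. Their median distance between summit and start site was 340 bp, 57.2% covered a start site and 84.2% had the summit downstream of it. Among genes with H3K4me3 in all 8 mice, the median percentile of fold within the list (100 being the strongest peak) was 60.0 for the 7 imprinted genes and 76.6 for all 12008 genes. The median width was 2004 bp against 1530 bp. The imprinted promoters in this set thus ranked lower and were wider, described here without a test.

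Active marks were uncommon beside this H3K4me3. H3K27ac was found in all 8 mice at Gnas, which encodes the stimulatory G protein alpha subunit used by adrenergic receptors. It was found in 5 mice at Peg3, a zinc finger gene, and at Impact, a regulator of translation. Igf2r, Kcnq1ot1 and Zrsr1 had it in 4 mice, Airn, Peg10 and Sgce in 3 and Inpp5f in 1. In no imprinted gene did H3K27ac occur in a mouse without H3K4me3 there. That was seen at 3.63% of all genes and 1.83% of protein-coding genes. At shares this low, 0 of 33 is no result about the imprinted genes.

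Of the 17 imprinted genes with H3K4me3 in 7 or 8 mice, 7 (41.2%) had no H3K27ac in any mouse. The share was 12.5% over the 15096 genes with H3K4me3 in 7 or 8 mice. The 7 were Grb10, Phlda2, a growth-restraining gene of the placenta, the zinc finger gene Zim1, and Snrpn, Ndn, Magel2 and Mkrn3 of the Prader-Willi region. Without mice 7 and 10, H3K27ac was absent in 12 of 22 imprinted genes with H3K4me3 in every mouse (54.5%), against 17.3% of all such genes. The 5 added were Ascl2, Cdkn1c, Mest, Nap1l5 and Plagl1. H3K27ac in 7 or 8 mice was found at 1 of the 17 (5.88%, Gnas) and at 33% of all genes with that H3K4me3. Over all genes H3K4me3 ranked lower where H3K27ac was missing, with a median percentile of 50.1 against 75.8. Among the imprinted genes the difference was small. The median was 51.3 for the 7 without H3K27ac (26.5 to 61.8) and 55.1 for the 10 with it (47.6 to 76.4). The part of the H3K4me3 rank in the missing H3K27ac was not tested.

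Presence of the 2 marks was compared gene by gene over 8 lists each (two-sided Fisher's exact test, adjusted by Benjamini-Hochberg over 20608 genes). H3K4me3 was present in more mice than H3K27ac at 13 of the 29 imprinted genes tested, against a background of 19.5% of all genes tested. Zim1, Snrpn, Ndn, Magel2, Mkrn3, Phlda2 and Grb10 had H3K4me3 in 7 mice and H3K27ac in none, and Inpp5f had 8 against 1 (adjusted exact p = 0.0121 for each). Mest, Cdkn1c, Ascl2, Plagl1 and Nap1l5 had 6 against 0 (adjusted exact p = 0.0366). No imprinted gene had H3K27ac in more mice. Paired by mouse (exact McNemar test), no imprinted gene and none of the 20608 genes passed, with an adjusted p of 0.136 for 7 against 0 and 0.150 for 6 against 0. The number of calls fell to 8 without any one of mice 1, 2, 4, 5, 8 or 11, against 11.0% to 12.8% of all genes, and the 5 genes with H3K4me3 in 6 mice were the ones lost. With lists shortened to 10000 H3K4me3 and 3000 H3K27ac peaks the calls were 4 of 14 tested (Inpp5f, Kcnq1ot1, Mkrn3 and Zrsr1), against 67.4% of all genes tested, so that imprinted genes were then called less often than genes overall and the direction of the main comparison with the background turned round.

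The Prader-Willi genes on chromosome 7 carried H3K4me3 alone. Ndn and Magel2, related genes of the MAGE family, and Mkrn3, a ubiquitin ligase gene linked to the timing of puberty, had H3K4me3 in the same 7 mice as Snrpn. The H3K4me3 percentile at Snrpn ran from 48.4 over a median of 58.0 to 64.7, a narrow range. At Mkrn3 it ran from 41.1 over 61.8 to 67.2 and at Ndn from 48.6 over 52.3 to 65.7. Magel2 was lower, from 8.49 over 37.1 to 49.7. The summit lay a median of 195 bp past the start at Magel2 and 241 bp at Mkrn3. At Ndn it lay 1889 bp past the start annotated by GENCODE, but H3K4me3 also overlapped, in 7 mice, the RefSeq promoter window of Ndn at chr7:62348027-62348326, whose start lies further downstream. The Snrpn peak covered chr7:60003823-60005347 and none lay at the upstream promoter. H3K27ac, H3K4me1 and H3K27me3 were listed at none of these 4 genes in any mouse.

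In the Kcnq1 domain, also on chromosome 7, the marks differed along the genes. Kcnq1ot1 had H3K4me3 in all 8 mice, over chr7:143294156-143296972, while the promoter of Kcnq1 itself had it in mice 2, 5 and 11. Phlda2 had it in 7 mice and Cdkn1c, an inhibitor of the cell cycle, and Ascl2, a placental transcription factor, in 6. H3K27ac was found at Kcnq1ot1 (mice 1, 2, 5 and 11) and at none of these other genes. H3K27me3 was listed in mouse 5 at Kcnq1, Phlda2 and Ascl2 and not at Kcnq1ot1. The Ascl2 peak of H3K27me3 was 1324 bp wide, at a percentile of 90.3 within its list.

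Igf2r, the receptor that clears IGF2, and the antisense RNA Airn, which starts in an intron of Igf2r, were both marked. Igf2r had H3K4me3 in all 8 mice with percentiles spread from 1.70 (mouse 10) over a median of 47.6 to 69.8 (mouse 8). Airn had it in 7 mice, from 22.2 over 51.8 to 64.8. Airn was the imprinted gene with H3K4me1 in the most mice, namely 2, 5, 8 and 11, in a peak upstream of the start at a median of -1592 bp. The strongest H3K4me1 peak of Airn stood at percentiles of 9.0, 85.7, 98.4 and 56.3 in mice 2, 5, 8 and 11. In mouse 8 that strongest peak was a different one, with its summit 2544 bp past the start, and the upstream peak stood at 37.9. Ascl2 (mouse 2) and Nnat (mouse 5) were the others with H3K4me1. Beyond the promoter windows, the body of Airn held H3K27ac peaks in 7 mice, at most 9 in a mouse, and H3K4me1 peaks in 5 mice, at most 12. Airn overlaps Igf2r only in part and reaches beyond it. In mouse 10 its body held 2 H3K27ac peaks and that of Igf2r 0. These peaks were therefore not assigned to a gene.

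Peg10, a gene derived from a retrotransposon, and Sgce, a sarcoglycan, start back to back on chromosome 6 and shared 1 H3K4me3 region of 3048 bp, chr6:4745960-4749007. It was found in 7 mice at percentiles from 42.0 over 55.1 to 94.8, and it counts for both genes. Peg3 had H3K4me3 in all 8 mice in a region of 3944 bp, chr7:6727250-6731193, with percentiles from 43.3 over 52.7 to 60.1, and its neighbour Zim1 in 7 mice, from 43.0 over 51.3 to 83.4. At Peg3 the H3K27ac peaks of mice 2, 4, 5, 8 and 11 lay within this region, with the summit at a median of 1217 bp past the start.

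Among genes with alternative promoters, Mest had H3K4me3 at the downstream promoter in 6 mice, over chr6:30736870-30739012, and at the upstream one in none. Its percentiles were low, from 8.23 over 17.0 to 42.2. Grb10 had it at the outer, CpG-rich promoter in 7 mice, with percentiles from 17.9 over 26.5 to 35.1. Near the inner promoter of Grb10 it was listed in mice 5 and 11, at 14.1 and 8.7. Plagl1, a zinc finger gene that restrains growth, had a single peak region around its start in 6 mice, from 1.24 over 36.9 to 48.2. Cdkn1c ran from 3.15 over 32.3 to 44.4, Nap1l5 from 8.95 over 27.2 to 46.6 and Ascl2 from 7.80 over 26.7 to 44.5. All of these medians lay in the lower part of the lists. The genes with H3K4me3 in 1 to 5 mice overlapped them, with medians of 11.9 at Rasgrf1, 12.7 at Zdbf2, 16.9 at Meg3, 17.8 at Igf2, 18.5 at Nnat and 27.2 at Kcnq1 and a single value of 24.4 at Slc38a4.

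H3K27ac, where present, ranked differently from gene to gene. At Impact, on chromosome 18, its percentile ran from 54.4 over 81.7 to 91.4 in 5 mice, and at Peg3 from 40.1 over 68.0 to 87.5. At Zrsr1 it ran from 14.1 over 39.6 to 55.0, at Igf2r from 14.1 over 32.4 to 49.6 and at Kcnq1ot1 from 1.62 over 14.1 to 25.3, each in 4 mice. Next to Gnas, Impact and Peg3 thus had the higher-ranking H3K27ac and Kcnq1ot1 the lowest median of the 10 genes with the mark.

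Genes that lie in an intron of a larger gene could be set beside their hosts. Zrsr1, a splicing factor gene made by retrotransposition, lies in Commd1, and both had H3K4me3 in 8 mice, with H3K27ac in 4 and 7 mice. Nap1l5 lies in Herc3: it had H3K4me3 in 6 mice and H3K27ac in none, and the host had 8 and 4. Nnat, a small proteolipid gene of neurons and endocrine cells, lies in Blcap: it had 4 and 0 and the host 8 and 7. Airn had 7 and 3 and its host Igf2r 8 and 4, whereas Kcnq1ot1 had 8 and 4 and its host Kcnq1 3 and 0. H3K27ac was thus listed in more mice at the host promoter in 4 of these 5 pairs and in fewer at Kcnq1.

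Gnas uses several promoters, which fell into 4 groups at 0, 13539, 43448 and 45686 bp from the first. At the first pair H3K4me3 was listed in mouse 5 alone, at percentiles of 22.2 and 3.67. Both downstream promoters had H3K4me3 in all 8 mice, and H3K27ac was found in 6 mice at the third and in 8 at the fourth. Their 2000 bp windows overlap, so a peak can count for both and these counts are not independent. The only H3K4me3 peak counted for the third in mouse 7 had its summit nearer the fourth, as did the H3K27ac peak in mouse 4. The H3K4me3 region reached 9544 bp in mouse 11 and 1496 bp in mouse 7. Its percentiles in mice 1, 2, 4, 5, 7, 8, 10 and 11 were 77.8, 91.2, 55.3, 90.2, 67.9, 83.6, 49.6 and 75.1. For H3K27ac they were 96.2, 90.8, 34.1, 98.0, 9.06, 96.7, 64.1 and 98.8. Mice 1, 2, 5, 8 and 11 thus ranked at the top for H3K27ac and mice 4, 7 and 10 well below, and both temperatures and both diets held such a low mouse.

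**Figure D4:**
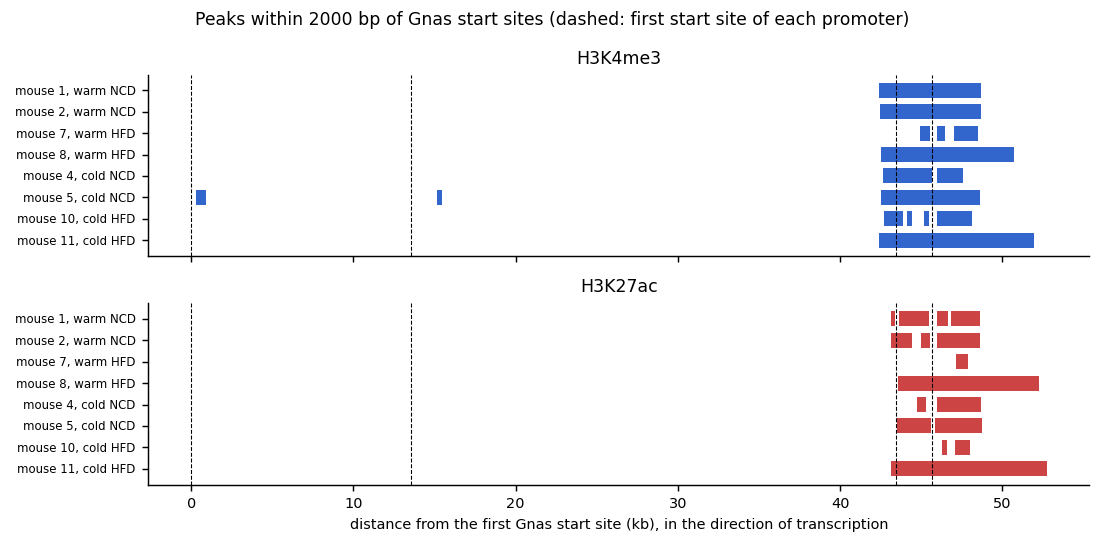
H3K4me3 (blue) and H3K27ac (red) peaks within 2000 bp of Gnas start sites, 1 line per mouse, by distance in kb from the first start site, with a dashed line at the first start site of each promoter. H3K4me3 lies near the first pair of promoters in mouse 5 alone and near the downstream pair in all 8 mice, where mice 7 and 10 have shorter, broken peaks.

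At Inpp5f, an inositol phosphatase gene with a second promoter 76186 bp downstream of the first, H3K4me3 was found at the first in 8 mice and at the second in 7. The second promoter had percentiles of 36.6, 40.8, 48.1, 54.2, 7.29, 49.5 and 53.9 in mice 1, 2, 4, 5, 8, 10 and 11, and no H3K27ac. Taken over the gene, the percentile ran from 55.9 to 84.6 with a median of 72.5, and it had a single H3K27ac peak, in mouse 11.

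H3K27me3 was almost wholly a matter of 1 mouse. In mouse 5 it was listed at Ascl2, Dlk1, H19, Igf2, Kcnq1, Phlda2, Rasgrf1 and Zdbf2 (8 of 33, 24.2%, against 4.41% of all genes and 7.67% of protein-coding genes). In mouse 11 it was listed at Zdbf2 alone (3.03%, against 1.3% of all genes), and in the other 6 mice at no imprinted gene. Mouse 5 also had the longest H3K27me3 list, and without it 1 imprinted gene is left. Percentiles within the list of mouse 5 were 95.6 at Zdbf2, 90.3 at Ascl2, 80.7 at Dlk1, 62.7 at Rasgrf1, 50.8 at Igf2 and Phlda2 and 37.8 at H19 and Kcnq1. Zdbf2 was at 77.9 in mouse 11. Dlk1 and H19 carried H3K27me3 and no other mark within the 2000 bp window. At H19 this hung on the window, since in mouse 5 an H3K4me3 peak lay 2271 bp from the start. Ascl2, Igf2, Kcnq1, Phlda2, Rasgrf1 and Zdbf2 carried H3K4me3 and H3K27me3 in the same mouse. Such pairs made up 18.2% of the imprinted genes and 3.32% of all genes. Among genes with H3K4me3 in mouse 5, 6 of 29 imprinted genes (20.7%) and 9.60% of all genes also had H3K27me3. Whether both marks lay on the same copy or in the same cells was not measured. At Igf2 the H3K27me3 peaks of mouse 5 were spread over its promoters in 4 pieces of 342 to 575 bp.

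Temperature did not separate the imprinted genes by presence of a mark. A gene was called when the peak was in all 4 mice on one side and in 0 of 4 on the other, since with 4 against 4 only that reaches the smallest exact Fisher p of 0.0286. For H3K4me3, 0 of 29 imprinted genes tested were called by temperature against a background of 0.0415%, and 0 by diet against 0.337%. For H3K27ac, 0 of 10 were called by either factor, against 0.116% each. For H3K4me1, 0 of 3 were called, against 0% by temperature and 0.131% by diet, and for H3K27me3 0 of 8, against 0% and 0.275%. All adjusted p-values were 1, and no imprinted gene had an unadjusted exact p under 0.05. At backgrounds this low, 0 calls among so few genes is no result about the imprinted genes.

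The imprinted genes nearest to a split were few. Meg3 had H3K4me3 in 3 cold mice (4, 5 and 11) and no warm mouse (two-sided exact Fisher p = 0.143), with percentiles of 7.57 to 17.7, so these were weak peaks. Without mouse 10 it met the rule, as did 170 genes in all, against 8 of 19285 with all 8 mice. Airn, Peg10 and Sgce had H3K27ac in 3 NCD mice (2, 4 and 5) and no HFD mouse (two-sided exact Fisher p = 0.143 each). They met the rule without mouse 1, as did 89 genes in all, against 18 of 15523 with all 8 mice. Muscle markers split by diet in the same direction, with 2 of 8 carrying H3K4me3 in each NCD mouse and 0 in each HFD mouse, and their part was not tested. The number of imprinted genes with H3K4me3 was 25.0 ± 5.48 (SD, n = 4) in cold and 20.0 ± 8.72 in warm mice, and 19.3 ± 9.39 in HFD and 25.8 ± 2.5 in NCD mice. Each difference was smaller than the larger SD of its pair.

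Peak rank could be compared for the 7 imprinted genes with H3K4me3 in all 8 mice. Kcnq1ot1 stood at percentiles of 39.7, 49.5, 21.3 and 35.8 in the warm mice 1, 2, 7 and 8. In the cold mice 4, 5, 10 and 11 it stood at 86.6, 68.1, 69.0 and 68.8. Every cold mouse lay above every warm mouse. The means were 73.1 ± 8.97 (SD, n = 4) and 36.6 ± 11.7, a difference of 36.6 percentile points (exact permutation test over 70 assignments, two-sided p = 0.0286, the smallest it can give; adjusted p = 0.725 over 12008 genes). It did not pass after adjustment, and neither did any other gene. Values of the 2 temperatures did not overlap at 1 of 7 imprinted genes (Kcnq1ot1), against 3.94% of all genes tested. Ranked by the size of the difference, 27 of the 12008 genes (0.225%) were at least as far apart in the same direction. All genes' median difference was 4.24, so cold lists ranked this set slightly higher as a whole. The difference at Kcnq1ot1 ran from 31.5 to 40.9 when single mice were left out and was 32.8 without mice 7 and 10 (exact permutation p = 0.100). Since no cold mouse lay below a warm mouse, the same order within NCD and within HFD follows and adds no further evidence.

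**Figure D5:**
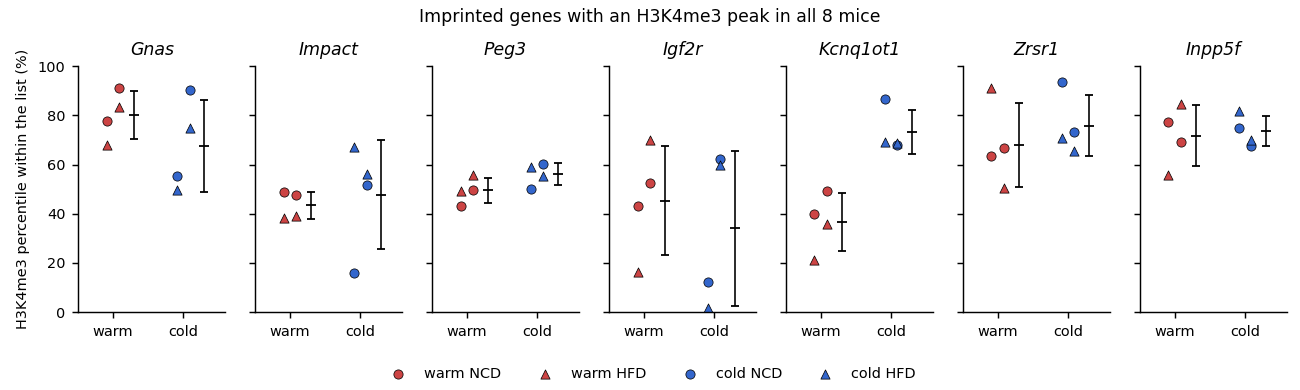
Percentile of H3K4me3 fold within its own list for the 7 imprinted genes with a peak in all 8 mice, warm beside cold, circles for NCD and triangles for HFD, bars for mean ± SD of 4 mice. Only at Kcnq1ot1 do warm (21.3 to 49.5) and cold (68.1 to 86.6) not overlap.

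The other 6 genes overlapped between temperatures. Cold minus warm was 6.70 at Peg3 (exact permutation p = 0.0857, adjusted 0.848), 7.87 at Zrsr1, 4.26 at Impact, 1.84 at Inpp5f, -11.3 at Igf2r and -12.6 at Gnas, with no unadjusted exact p below that of Peg3. Those of Impact and Inpp5f changed sign when mouse 10 was left out. By diet 0 of 7 were separated, against 3.37% of all genes, and 0 of 7 by the interaction of temperature and diet, against 2.47%. The interaction of Impact was -18.5 points (exact permutation p = 0.0857, adjusted 1.00). For H3K27ac, Gnas was the 1 imprinted gene with a peak in all 8 mice. Its values overlapped by temperature (background 4.30% of 1279 genes), by diet (3.36%) and by interaction (2.03%).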

How the data were processed

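The deposited files are narrowPeak lists. Per the labels and the study's methods, the authors trimmed reads (cutadapt), aligned them to GRCm38 (Bowtie2) and called peaks per library against the same mouse's input (MACS2); the sources used here name no versions. Column values as deposited are the fold enrichment (a ratio) and the −log10 p and −log10 q of each peak. The lowest −log10 q in any list was 1.30. The 8 inputs had no list and were not analysed here.

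Peaks (457842) were joined to GENCODE M21 basic start sites when they overlapped 2000 bp to either side. Folds were not compared between lists. Each was turned into its percentile within its own list, and a gene took its strongest peak. Presence was tested by Fisher's exact test, marks also by McNemar's exact test with the mouse as block, and percentiles by exact permutation, each with Benjamini-Hochberg adjustment over all genes (Python 3.11.15, numpy 2.4.6, pandas 2.3.3, scipy 1.17.1). The procedures were tested on simulated data. Mouse numbers mark the same animal across marks, and log10 list lengths of the same mouse correlated between marks (r 0.679 to 0.922 over 6 pairs of marks); numbers do not pair conditions. All 33 listed genes are named in the text or the plots. The genes and marker lists were chosen with earlier results of these data known.

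Alternatives were windows of 1000 and 5000 bp, the annotated 5′ end only, −log10 q of at least 5, equal list lengths, ranking by −log10 q, leaving out each mouse or mice 7 and 10, and, chosen after seeing the data, the comprehensive transcript set and the counts of genes without H3K27ac when mice were left out. Depth per library is unknown, so list length stands in for it.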

Additional observations from a re-analysis of the deposited data

Results flagged for a closer look

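In 47 sets of 4 mice examined, 8 values lay far from the other 3 by Dixon's criterion, which chance meets in about 1 of 20 sets of continuous values. That rate does not carry over to counts with ties, where a single nonzero count always meets the criterion. Each mouse also entered a temperature and a diet set, so the sets were not independent. Imprinted genes with H3K4me3 numbered 7 in mouse 7, while its 3 warm companions had 23 to 25. Those with H3K27me3 numbered 8 in mouse 5, against 0 to 1 in the other cold mice and 0 in the other NCD mice, and 1 in mouse 11 against 0 in the other HFD mice. The H3K4me3 percentile of Kcnq1ot1 reached 86.6 in mouse 4, while cold mice 5, 10 and 11 stood at 68.1 to 69.0, and that of Impact was 15.8 in mouse 4, with NCD mice 1, 2 and 5 at 47.5 to 51.8. For H3K27ac at Gnas the percentile of warm mouse 7 was 9.06 where mice 1, 2 and 8 had 90.8 to 96.7, and that of mouse 4 was 34.1 where mice 1, 2 and 5 (NCD) had 90.8 to 98.0. Mouse 7 had the shortest H3K4me3, H3K27ac and H3K4me1 lists and mouse 5 the longest H3K27me3 list, and the part of list length in these values was not tested.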

How the results depend on the processing

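The number of imprinted genes with H3K4me3 in every mouse ranged from 7 to 17 when single mice were left out (17 without mouse 7) and was 22 without mice 7 and 10 (29.1% of all genes), 4 at a −log10 q of at least 5 and 3 at equal list length, where 14 genes had it in at least 1 mouse. H3K27ac in every mouse (1, Gnas) fell to 0 within 1000 bp, at the annotated 5′ end only, at a −log10 q of at least 5 and at equal list length, where 1 gene had it at all. H3K4me1 was found at 7 genes within 5000 bp, 1 at a −log10 q of at least 5 and 5 with the comprehensive transcripts. H3K27me3 was found at 1 to 8 genes when single mice were left out (1 without mouse 5) and at 3 at a −log10 q of at least 5. Called by temperature for H3K4me3 presence were 0 to 1 genes with a mouse left out and 1 without mice 7 and 10 (0.939% of all genes). The 1 came without mouse 10, where 170 of all genes were called, against 8 with all mice. By diet for H3K27ac 0 to 3 were called. The 3 came without mouse 1, where 89 of all genes were called, against 18 with all mice. The comparison of H3K4me3 with H3K27ac called 8 to 13 genes with a mouse left out (11.0% to 17.3% of all genes), 4 of 14 at equal list length, where 67.4% of all genes passed and the imprinted genes were below the background, and 0 with the replicate block, which pairs the lists by mouse. Percentiles did not overlap by temperature at 1 to 2 genes with a mouse left out. It was 2 without mouse 4, 7 or 8, with 750, 1255 and 712 of all genes, against 473 with all mice. Without mice 7 and 10 it was 5 of 22 tested (Airn, Grb10, Kcnq1ot1, Ndn and Phlda2), against 14.0% of all genes. By diet the numbers were 0 to 1, and 1 of 22 without mice 7 and 10 (Zim1, against 17.1% of all genes). The 1 came without mouse 7, with 683 of all genes, against 405 with all mice. By interaction they were 0 to 1, and 1 of 22 without mice 7 and 10 (Snrpn, against 8.34%). The 1 came without mouse 5, 7 or 8, with 1086, 653 and 547 of all genes, against 297 with all mice. Cold minus warm turned positive at Igf2r when ranked by −log10 q (3.32). With single mice left out it ranged at Impact from -2.20 to 14.9 and at Inpp5f from -3.47 to 6.10. It turned negative at Impact without mouse 10 (-2.20) and without mice 7 and 10 (-3.90), and at Inpp5f without mouse 7 (-3.47), mouse 10 (-0.903) or both (-6.21). The causes were not tested. With few mice and unknown depth, a missing peak is no evidence of a missing mark.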

Other observations

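Genes listed for a role in imprints, or in DNA methylation and its removal, mostly carried H3K4me3. Of 20 such genes, 13 had H3K4me3 in all 8 mice (21.7% of all genes, 44% of protein-coding genes). It was found in at least 1 mouse at 18 (34.8% of all genes, 65.7% of protein-coding genes), with Ctcfl and Tet1 in none. H3K27ac was found at 16 in at least 1 mouse (28.0% of all genes, 50.6% of protein-coding genes) and at 0 in all 8 (2.31% of all genes). Zfp57, whose zinc fingers hold methylation at imprinted control regions, had H3K4me3 in 7 mice and H3K27ac in 0. Trim28, its partner, had them in 8 and 4 mice, Zfp445 in 8 and 7, and Dnmt1, which copies methylation after replication, in 8 and 2.

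Of 21 neighbours and host genes found, which lie beside the imprinted genes, 16 had H3K4me3 in all 8 mice (21.7% of all genes, 44% of protein-coding genes). H3K27ac was found in at least 1 mouse at 16 of them (28.0% of all genes, 50.6% of protein-coding genes). Among them, Usp29 starts beside Peg3 and shares its peaks, so it is no separate region. Ube3a, which is imprinted in neurons, had H3K27ac in all 8 mice.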
